A study of Mus musculus with 30 samples.

Results

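Actb and a group of other genes that are widely used as internal references were followed through the neonatal hypothalamus of female C57BL/6J mice. The genes were Actb, Actg1, Gapdh, Hprt, Ppia, Tbp, Ywhaz, Pgk1 and B2m, and their probe sets were taken by gene symbol from the annotation of the array, each probe set kept apart and the control probe sets left out. Of 45037 probe sets, 18 were listed for 1 of these genes alone: 2 of Actb, 1 of Actg1, 1 of Hprt, 2 of Tbp, 7 of Ywhaz, 3 of Pgk1 and 2 of B2m. Gapdh and Ppia had none of their own. The 3 probe sets of Gapdh and the 1 of Ppia are listed together with pseudogenes or predicted genes, so they are given beside the others and not counted with them.

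EB-treated mice received 7.5 μg of estradiol benzoate, or EB, a long-acting estrogen, in 20 μl of peanut oil under the skin on the day of birth, and the vehicle mice received oil. The whole hypothalamus was taken 1, 3, 6, 12 or 24 h later, which gave 10 groups of 3 mice and 30 Affymetrix arrays. All mice were wild-type females of about 1.4 g, and the litter of each is not given in the sources used here. Values are signals, either as the authors deposited them or scaled, that is, multiplied so that each array has the same median.

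A reference gene is one whose transcript is expected to stay level while others change, so that a measurement can be divided by it. Actb and Actg1 encode the cytoplasmic β- and γ-actin, the subunits of actin filaments, which are abundant in growing neurites. Gapdh and Pgk1 encode enzymes of glycolysis, Hprt an enzyme of purine salvage encoded on the X chromosome, and Ppia the prolyl isomerase cyclophilin A. Tbp encodes the TATA-binding protein of the general transcription machinery, Ywhaz the adaptor protein 14-3-3ζ, and B2m the light chain of major histocompatibility complex (MHC) class I.

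Promoter sequences of 7 of the 9 genes were taken from RefSeq (build GRCm38.p6), each 300 bases long with 250 bases before the start site. Actb and Ywhaz were not matched. Those of Actg1, Ppia and Hprt are shown because the probe sets of Actg1 and Ppia were lower with EB at 24 h while that of Hprt was not called. Each line gives the 150 bases before the start site, 5′ to 3′ along the gene. Capitals mark the CArG box, the site of serum response factor, in Actg1 (chr11:120348496-120348645, minus strand), TATAAA in Ppia (chr11:6415717-6415866, plus strand) and GGGCGG in Hprt (chrX:52987928-52988077, plus strand).
Actg1: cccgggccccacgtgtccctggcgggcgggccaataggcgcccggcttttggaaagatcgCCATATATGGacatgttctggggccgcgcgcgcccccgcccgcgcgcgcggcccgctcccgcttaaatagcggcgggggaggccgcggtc
Ppia: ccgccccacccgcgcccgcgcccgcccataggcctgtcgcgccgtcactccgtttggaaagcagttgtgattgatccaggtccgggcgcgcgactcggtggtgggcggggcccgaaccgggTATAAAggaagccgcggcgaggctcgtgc
Hprt: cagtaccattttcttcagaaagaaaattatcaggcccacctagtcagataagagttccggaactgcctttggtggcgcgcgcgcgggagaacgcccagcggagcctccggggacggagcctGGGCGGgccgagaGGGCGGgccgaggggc
A CArG box, searched on both strands, was in 1.63% of the 32851 promoters of the table, and among the 7 genes only Actg1 had one in its 300 bases. TATAAA was in 13.6% of promoters and, among these genes, in those of Ppia and B2m. GGGCGG was in 35.7% and was matched in Actg1, Ppia, Hprt, Tbp and Pgk1. It is in capitals for Hprt only, although the printed bases of Actg1 and Ppia hold it too. Gapdh, whose brightest probe set was also lower at 24 h, had no match of these and is not shown. A match of letters is a description of the promoter and does not show binding.

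The arrays were not on one scale. The median deposited signal of an array lay between 28.0 and 66.9, and the 6 arrays at 12 h, from 52.9 to 66.9, were the 6 brightest. The highest signal of an array varied less, from 8629 to 14915. Markers of the hypothalamus were present, with 13 of 14 measured genes above the filter for dim signals and Rax below it. No probe set of 6 red blood cell genes or 4 pituitary hormone genes passed the filter. Fibroblasts of the leptomeninges, the membranes around the brain, had lower markers in the EB 24 h arrays. Of the 12, 11 passed the test by limma, and the median over the 12 was -2.33 on the log2 scale. Their mean log2 signal per array, centred on all arrays, ran from -3.42 to -0.77 in the EB 24 h arrays and from -0.16 to 0.11 in the vehicle 24 h arrays. At 24 h 1 of 11 microglia and macrophage genes passed (Mrc1, at -1.69), as did 1 of 10 neuronal genes (Stmn2, at -0.32), both lower, while 0 of 13 hypothalamus and 0 of 10 endothelial genes passed by limma.

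Levels differed widely among the genes. The brightest probe set of Actg1 (1415779_s_at) had a scaled mean (geometric, over the 30 arrays) of 9579 and that of Actb (1436722_a_at) 9339, which made them the 8th and the 10th brightest of all probe sets on the array. On each array the Actb signal was 72.4 to 87.4% of the highest signal on that array, and the Actg1 signal 72.7 to 90.5%. The other genes were dimmer: by their brightest probe set, the mean was 4722 for Ywhaz (1436971_x_at), 1705 for Pgk1 (1417864_at), 1029 for Hprt (1448736_a_at), 462 for B2m (1449289_a_at) and 190.4 for Tbp (1426469_a_at). Probe sets differ in how well they bind, so these figures do not rank the transcripts. The dimmer Tbp probe set averaged 5.28 and was the 1 of 18 under the filter, which left 17 to be tested.

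The 2 probe sets of Actb did not read alike. At 24 h the brighter one, 1436722_a_at, had scaled signals of 7401, 7874 and 8460.0 in EB-treated mice, against 12482, 12305 and 10917 in vehicle-treated mice. The 3 EB arrays lay below the 3 vehicle arrays by a wide margin. The group means were 7912 ± 531 with EB and 11902 ± 857 with vehicle (SD, n = 3 each), which in limma gave a log2 fold change of -0.59 ± 0.09 (SE) with an adjusted p of 0.00069. The dimmer probe set, 1419734_at, had scaled signals of 4847, 4917 and 4771 in EB-treated mice, against 4310.4, 4163 and 4529 in vehicle-treated mice. There the EB arrays lay above the vehicle arrays, with a log2 fold change of 0.16 that did not pass (95% interval 0.01 to 0.31, adjusted p = 0.27 from limma).

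The ratio of the 2 Actb probe sets within an array does not change when the whole array is multiplied by a factor. At 24 h its log2 value was 0.61, 0.68 and 0.83 in EB-treated mice and 1.53, 1.56 and 1.27 in vehicle-treated mice, a difference of -0.75, given without a test because the 2 probe sets were already apart in opposite directions. At 1 and 3 h all 12 arrays lay between 1.07 and 1.43, near the vehicle arrays of 24 h. At 6 and 12 h all 12 lay between 0.31 and 0.93, a range that holds the EB arrays of 24 h. Thus at 24 h the EB arrays resembled those of 6 h in this ratio and the vehicle arrays those of 1 and 3 h. No order of hybridisation or scanning is given in the sources used here, and any such batch made of whole groups cannot be told apart from treatment and time.

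**Figure D1:**
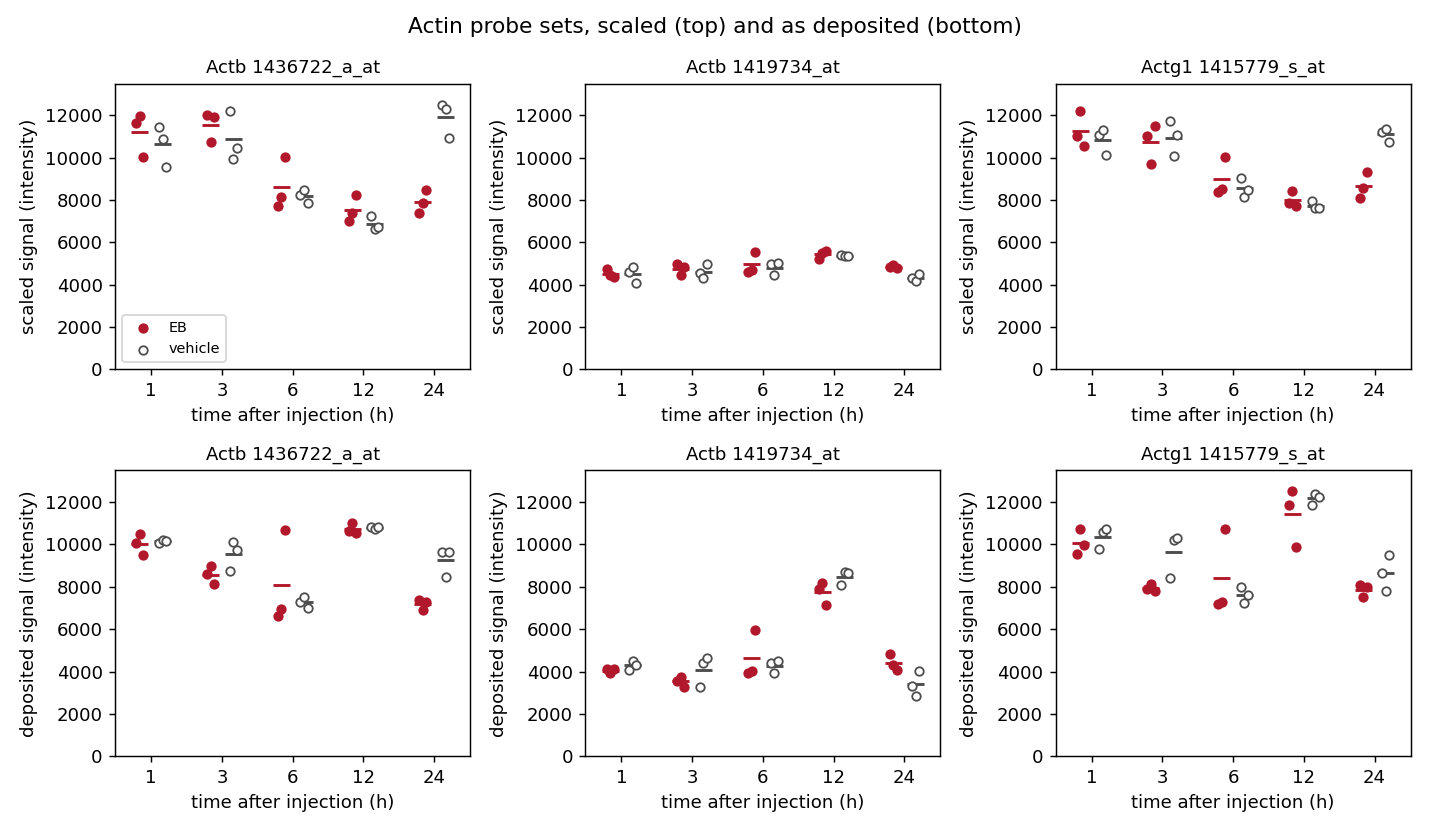
Signal (y axis, intensity) of the 2 Actb probe sets and the Actg1 probe set in each array, against time after injection (x axis, h), scaled to one array median (top) and as deposited (bottom), with filled circles for EB, open circles for vehicle and a short bar marking the group mean (n = 3). The brighter Actb probe set lay at 7401 to 8460.0 in the EB arrays of 24 h and at 10917 to 12482 in the vehicle arrays when scaled, and the dimmer one did not follow it.

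Actg1 moved as the brighter Actb probe set did. Its scaled signals at 24 h were 8108, 8563 and 9313 in EB-treated mice, against 11224.5, 11362 and 10753 in vehicle-treated mice. The groups did not overlap, and limma put the log2 fold change at -0.36 ± 0.08 (SE), with an adjusted p of 0.0080. Over the 10 groups the scaled means of both were highest at 1 h, 3 h and in the vehicle group of 24 h, from 10632 to 11902 for Actb and from 10749 to 11272 for Actg1. They were lower at 6 h, at 12 h and in the EB group of 24 h, from 6868 to 8624 for Actb and from 7740.4 to 8988 for Actg1. The ratio of Actb to Actg1 had an SD of 0.11 on the log2 scale over the 30 arrays, the smallest of the 21 pairs.

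The 24 h values of the actins stood beside a shift of the brightest probe sets as a whole. Among the 100 brightest of the 27022 kept probe sets, those with a mean scaled signal above 6427, the median log2 fold change at 24 h was -0.38 against -0.01 over all kept probe sets. Of these 100, 80 passed the test as lower with EB and 0 as higher. The same 100 were raised less than the rest on the bright 12 h arrays: the median deposited log2 signal at 12 h exceeded that at the other times by 0.50 for them and by 0.85 for all kept probe sets. Quantile normalization, which gives every array the same distribution of signals, took the median of the 100 at 24 h to -0.01, and the fold changes to -0.16 for Actb (adjusted p = 0.045 from limma) and to 0.11 for Actg1 (adjusted p = 0.21 from limma), so the direction of Actg1 turned. Without scaling they were -0.36 and -0.14 (adjusted p = 0.14 and 0.54 from limma) while the median of all kept probe sets was 0.22. Without EB 24 h replicate 1 the Actg1 call was lost (adjusted p = 0.073 from limma), while that of Actb held without any 1 array (0.011 at the highest). The part of brightness, or of the fibroblast markers, in the actin values was not tested, and fewer cells of a type cannot be told apart from less RNA per cell in whole tissue.

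The probe sets listed for several genes followed the actins where they were bright. That of Ppia (1417451_a_at, also listed for Gm9234) had scaled signals of 6904, 7554.5 and 8129 in EB-treated mice at 24 h, against 10202.5, 10011 and 9819 in vehicle-treated mice (log2 fold change -0.41, adjusted p = 0.0062 from limma). The brightest listed for Gapdh (1418625_s_at) had 4954, 5256 and 5836 with EB against 7889, 7233 and 6895 with vehicle (log2 fold change -0.46, adjusted p = 0.0090 from limma). Both had EB arrays wholly below the vehicle arrays. Both were also among the 100 brightest probe sets. The 2 dim probe sets listed for Gapdh, 1447999_x_at and 1457612_at, had -0.08 and -0.24 and did not pass (adjusted p = 0.89 and 0.69 from limma).

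The array's own control probe sets for Actb and Gapdh read the 3′ end, the middle and the 5′ end of each transcript. They come from the same arrays scaled to the same medians, so they are not independent of the values above. They were bright too, with scaled group means of 5672 to 12054 for Actb and 3772 to 7464 for Gapdh. The part of brightness in their values was not tested. For Actb their log2 differences, EB minus vehicle at 24 h, were -0.41, -0.45 and -0.38 from the 3′ to the 5′ end, and for Gapdh -0.41, -0.38 and -0.31. Each of the 6 had its EB arrays below its vehicle arrays (two-sided exact permutation test, p = 0.1, the smallest that 3 against 3 allows). The ratio of the 3′ to the 5′ signal, a sign of RNA degradation when high, lay between 1.27 and 1.44 for Actb and between 0.65 and 0.76 for Gapdh over all 30 arrays. At 24 h the log2 ratio for Actb was 0.45 ± 0.04 with EB and 0.48 ± 0.04 with vehicle (SD, n = 3 each; exact permutation p = 0.4). For Gapdh it was -0.53 ± 0.06 with EB and -0.44 ± 0.05 with vehicle at 24 h (SD, n = 3 each; exact permutation p = 0.2), a difference of -0.10, where at the 4 earlier times the difference lay between 0.04 and 0.07. At 1 and 6 h the EB arrays lay wholly above the vehicle arrays in this ratio (exact permutation p = 0.1 at each). At 3, 12 and 24 h the groups overlapped.

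Of the 7 probe sets of Ywhaz, 1 passed as higher and 1 as lower at 24 h. At 24 h the probe set 1439005_x_at had scaled signals of 246.4, 257.5 and 280.2 in EB-treated mice, against 144.1, 148.6 and 159.4 in vehicle-treated mice. The EB arrays lay wholly above, and limma put the log2 fold change at 0.79 ± 0.18 (SE, adjusted p = 0.013). The probe set 1448218_s_at had 1015, 1071 and 1147 with EB against 1439, 1367 and 1447.5 with vehicle, and lay wholly below (log2 fold change -0.40 ± 0.09 (SE), adjusted p = 0.014 from limma). The brightest, 1436971_x_at, had 4986, 4673 and 5301 with EB against 4347, 4270.1 and 5012 with vehicle. Its groups overlapped and it did not pass (log2 fold change 0.14, 95% interval -0.05 to 0.32, adjusted p = 0.50 from limma). It passed as higher after quantile normalization (0.36, adjusted p = 0.012 from limma), cyclic loess (0.33, 0.014) and scaling to the reference genes (0.30, 0.025). The scaling to the reference genes sets each array by the mean log2 signal of the brightest probe sets of 7 genes, 1436971_x_at included. The 4 others, 1416102_at, 1416103_at, 1436981_a_at and 1448219_a_at, ranged from -0.22 to 0.40 at 24 h and did not pass. The suffixes matter here: probes of an x set can bind other transcripts and those of an s set match several. Thus 1439005_x_at, 1448218_s_at and 1436971_x_at are uncertain as measures of Ywhaz alone, as is the s set of Actg1 for that gene. Of these, 1436971_x_at stands for Ywhaz wherever a gene is taken by its brightest probe set.

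At 3 h another Ywhaz probe set, 1448219_a_at, was lower, with scaled signals of 4495, 3505.5 and 3505.4 in EB-treated mice and 5373, 4859 and 5585 in vehicle-treated mice. Each EB array lay below each vehicle array (log2 fold change -0.47 ± 0.10 (SE), adjusted p = 0.025 from limma). Of the 6 others, 1416102_at was at -0.48 (adjusted p = 0.13 from limma), and the remaining 5 ranged from -0.09 to 0.32. The 1448219_a_at call ended when EB replicate 2 or 3, or vehicle replicate 1 or 3, of that time was left out (adjusted p up to 0.18 from limma), and when the 6 arrays of 3 h were fitted alone (0.24). At 24 h, leaving out the second EB array or the first vehicle array ended the call of 1439005_x_at (adjusted p up to 0.065 from limma). That of 1448218_s_at ended without EB replicate 1 or 2, and without vehicle replicate 1 or 3 (up to 0.094).

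Counted over the 17 tested probe sets, few passed for EB. At 1 h, 0 of 17 passed, where 0.0037% of all 27022 tested probe sets passed, and at 3 h 1 passed, as lower, where 0.474% of all did. At 6 h and at 12 h 0 of 17 passed, and the share over all probe sets was 0%. By limma, 2, 2 and 1 of the 17 had an unadjusted p under 0.05 at 1, 6 and 12 h, beside 2332, 1626 and 1774 of all 27022. At 24 h 4 passed, 3 as lower and 1 as higher, which is 23.5% of the 17 where 2.77% of all passed. Without scaling, 0 of the 17 passed as lower and 2 as higher. Of the 749 called over all probe sets at 24 h 157 were higher, or 21.0% of calls, and this share was 61.9% of 194 without scaling, 39.5% of 620 after quantile normalization and 84.9% of 1779 after scaling to the reference genes. The effect averaged over the times passed in 0 of 17 by limma (5 at an unadjusted p under 0.05, beside 2348 of all 27022), where 0.074% of all passed. The median log2 fold change of the 17 was -0.07 at 24 h, against -0.01 over all tested probe sets.

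The effect of EB differed between times in 2 of the 17 probe sets, where 0.951% of all passed this test of the interaction. These were the brighter Actb probe set (F = 10.7, adjusted p = 0.014 from limma) and Ywhaz 1439005_x_at (F = 8.43, adjusted p = 0.027 from limma). For Actb the log2 fold changes at 1 and 3 h were 0.08 and 0.09, against -0.59 at 24 h. For Ywhaz 1439005_x_at the 6 h arrays held 208.9, 215.4 and 134.9 with EB against 405.7, 217.3 and 227.2 with vehicle, with the EB arrays below where at 24 h they lay above (log2 fold change -0.57 at 6 h, adjusted p = 0.54 from limma). The log2 ratio of 1448218_s_at over 1439005_x_at within an array at 24 h was 2.04, 2.06 and 2.03 with EB and 3.32, 3.20 and 3.18 with vehicle, a description only, since both were called there in opposite directions. The Actb interaction did not pass without vehicle 24 h replicate 1 or 2 or EB 24 h replicate 1 (adjusted p up to 0.078), nor that of Ywhaz without EB 24 h replicate 1 or 2 or any of the 3 vehicle arrays of 24 h (up to 0.091). With vehicle 24 h replicate 1 left out, 0 of 17 passed by limma.

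**Figure D2:**
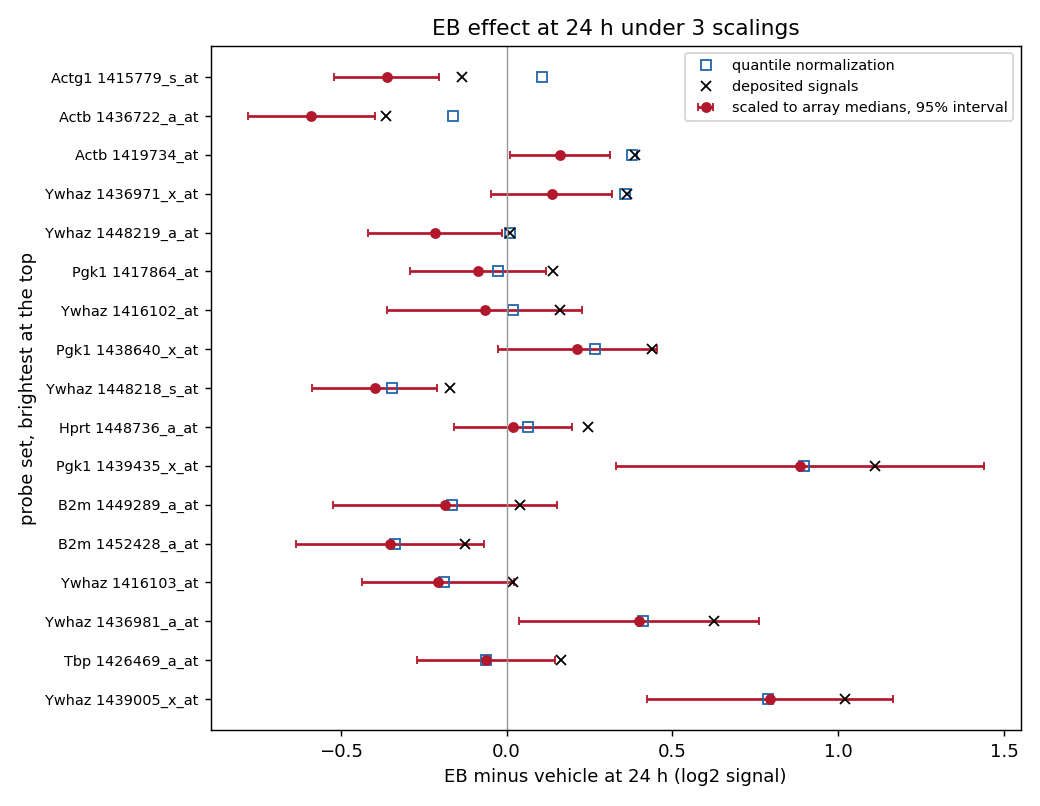
Log2 difference of EB minus vehicle at 24 h (x axis) for the 17 tested probe sets, ordered by brightness with the brightest at the top (y axis). Filled circles with bars give the estimate and 95% interval after scaling to array medians, open squares quantile normalization and crosses the deposited signals. Actb 1436722_a_at is at -0.59, -0.16 and -0.36 under the 3 scalings, and Actg1 at -0.36, 0.11 and -0.14.

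Under quantile normalization the dimmer Actb probe set, named here after its values were seen, passed as higher with EB at 24 h (log2 fold change 0.38, adjusted p = 0.00018 from limma) while the brighter passed as lower. Cyclic loess, added after the data were seen, gave 0.36 and -0.32 (adjusted p = 0.00023 and 0.0089 from limma). Scaling to the reference genes gave 0.32 and -0.43 (adjusted p = 0.0053 and 0.0037 from limma). This scaling is not separate from the brighter probe set, which is part of the mean that it uses. Against the array median that mean was at -0.12 in the EB group of 24 h and at 0.04 in the vehicle group. Under these 3 scalings, 1 probe set of Actb passed as higher and the other as lower on the same arrays.

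Hprt, Tbp, Pgk1 and B2m had no probe set that passed for EB at any time under scaling to array medians. Hprt had scaled signals of 1018, 1088 and 1062 in EB-treated mice at 24 h and 1053, 966.5 and 1109 in vehicle-treated mice, which overlapped. The log2 fold change was 0.02 (95% interval -0.16 to 0.20). For Tbp the values were 175.9, 199.1 and 180.0 with EB and 193.3, 182.2 and 203.9 with vehicle, also overlapping, at -0.06 (95% interval -0.27 to 0.14). These 24 h intervals exclude a change as large as that of the brighter Actb probe set, and do not show that the 2 genes were unchanged. At the earlier times Tbp was lower with EB too, from -0.17 at 3 h to -0.10 at 12 h. Averaged over the times it was at -0.13 (95% interval -0.22 to -0.03, adjusted p = 0.38 from limma). Hprt ranged from -0.04 at 6 h to 0.19 at 3 h (95% interval 0.01 to 0.37, adjusted p = 0.36 from limma). Its average was 0.08 (adjusted p = 0.57 from limma).

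Pgk1 differed among its 3 probe sets. The brightest, 1417864_at, had 1483, 1602 and 1610.1 with EB at 24 h and 1639, 1680.3 and 1656 with vehicle, a log2 fold change of -0.08 (95% interval -0.29 to 0.12). Its 3 EB arrays lay just below the 3 vehicle arrays, without a call (adjusted p = 0.75 from limma). The dimmest, 1439435_x_at, scattered most, with 428.0, 671.8 and 930.1 with EB and 437.6, 329.8 and 295.1 with vehicle. The lowest EB array fell below the highest vehicle array, and the log2 fold change of 0.88 missed the threshold (95% interval 0.33 to 1.44, adjusted p = 0.075 from limma). It passed on deposited signals (1.11, adjusted p = 0.016 from limma). The third, 1438640_x_at, had its EB arrays above its vehicle arrays at a log2 fold change of 0.21, which did not pass (adjusted p = 0.39 from limma). After scaling to the reference genes, whose mean includes 1417864_at, both passed, 1438640_x_at at 0.37 and 1439435_x_at at 1.04 (adjusted p = 0.028 and 0.015 from limma). Both are x sets, so they are uncertain as measures of Pgk1 alone.

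For B2m the brightest probe set had 565.0, 487.2 and 671.8 in EB-treated mice at 1 h, against 392.8, 401.2 and 463.4 in vehicle-treated mice. The EB arrays lay above, with a log2 fold change of 0.45 (95% interval 0.11 to 0.78) that did not pass (adjusted p = 0.43 from limma). At 24 h it had 316.2, 360.3 and 362.7 with EB and 359.6, 392.9 and 429.7 with vehicle, an overlap of 1 vehicle array (log2 fold change -0.18, adjusted p = 0.65 from limma). The other B2m probe set, 1452428_a_at, was at 0.33 at 1 h and at -0.35 at 24 h (adjusted p = 0.51 and 0.19 from limma). The 2 were alike over the 30 arrays (r = 0.87), whereas those of Actb were not (r = -0.58); the arrays of a group share treatment and time.

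More of these probe sets passed for time than for EB. Averaged over treatments, 12 of the 17 probe sets, from all 7 genes, passed the test across the 5 times, or 70.6%, where 49% of all tested probe sets passed. The brighter Actb probe set had the highest F, 32.7 (adjusted p = 3.0e-08 from limma), followed by Actg1 with 29.0 and Ywhaz 1448219_a_at with 28.3. Of the 100 brightest probe sets, which include those of Actb and Actg1, 100 passed for time, so this was not particular to the actins. The median scaled log2 signal of the 100 at 12 h differed from the other times by -0.29, against 0.06 over all kept probe sets. Hprt (F = 4.06, adjusted p = 0.025 from limma) and Tbp (F = 4.22, adjusted p = 0.021 from limma) passed with small F. Ywhaz 1436971_x_at did not pass (F = 2.40, adjusted p = 0.12 from limma). B2m was highest in the EB group of 12 h, at 648 ± 184 for the brightest probe set, and lowest in the EB group of 24 h, at 346 ± 26.2 (SD, n = 3 each).

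The spread over all 30 arrays ordered the probe sets differently with and without scaling. After scaling, the dimmer Actb probe set had the lowest SD of the log2 signal, 0.13, lower than all but 9.25% of the kept probe sets. Close to it were Ywhaz 1436971_x_at (0.13), Hprt (0.13) and Tbp (0.15). The brighter Actb probe set had 0.30, at the 72.6th percentile, B2m 0.32 at the 76.7th and Pgk1 1439435_x_at 0.45 at the 93.1st. On deposited signals the brighter Actb probe set had the lowest SD of the 17, 0.24, at the 0.178th percentile of all, and Actg1 the next, 0.26, at the 0.537th. The dimmer Actb probe set then lay at the 55.2nd percentile, with 0.45.

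The median SD of the 17 was 0.22 after scaling and 0.44 as deposited, beside 0.23 and 0.44 over all kept probe sets. The median of the group thus lay close to that of the rest. Scaling lowered the SD of 16 of the 17 and of 96.1% of all kept probe sets. The exception was the brighter Actb probe set. Outside the 17, the Ppia probe set also had a higher SD after scaling, 0.26 against 0.24 as deposited, at the 0.155th percentile. Those listed for Gapdh had a lower SD after scaling.

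**Figure D3:**
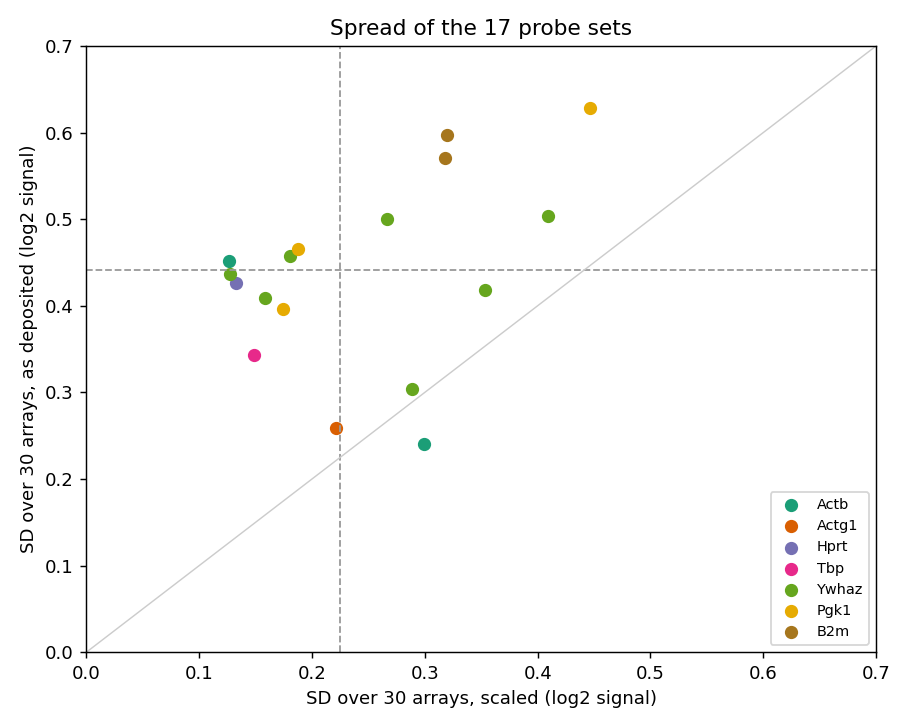
SD of the log2 signal over 30 arrays for the 17 probe sets, scaled (x axis) and as deposited (y axis), coloured by gene, with dashed lines at the median of all kept probe sets and a thin line where both are equal. Actb 1436722_a_at, at 0.30 and 0.24, is the one point under the line.

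**Figure D4:**
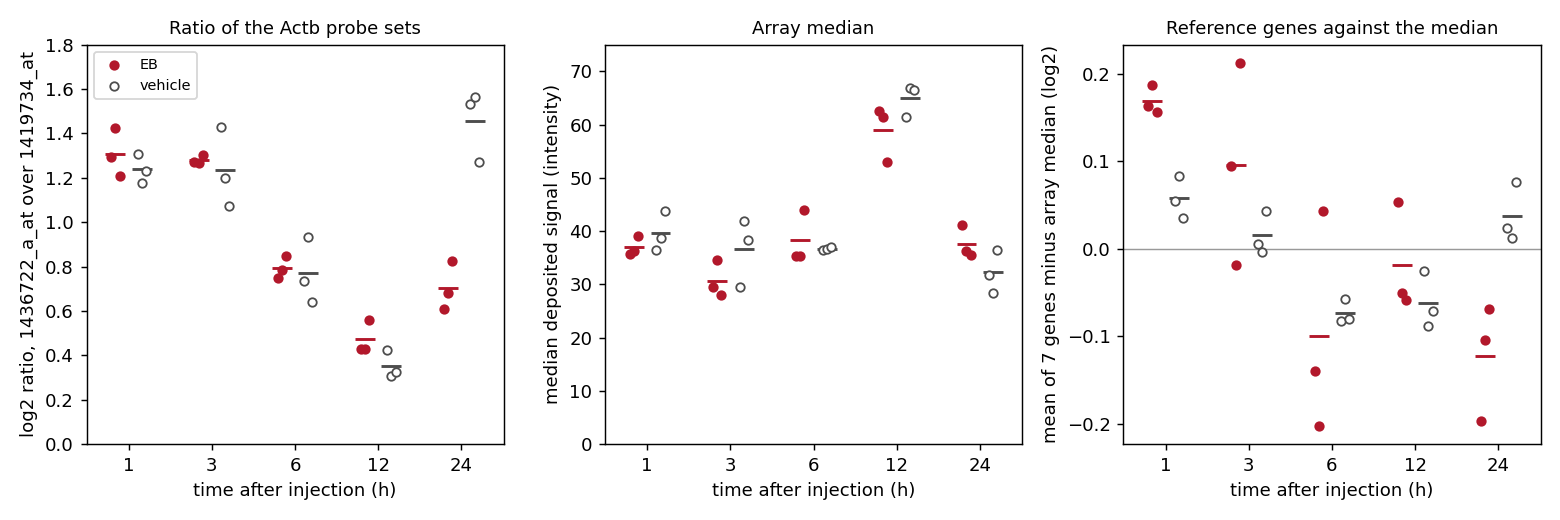
Log2 ratio of the 2 Actb probe sets, median deposited signal of the array, and mean of 7 reference genes minus the array median (y axes) in each array, against time after injection (x axes, h), with filled circles for EB, open circles for vehicle and a short bar marking the group mean (n = 3). The Actb ratio was 0.61 to 0.83 in the EB arrays of 24 h and 1.27 to 1.56 in the vehicle arrays, and the medians were highest at 12 h.

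The reference genes were also set against the array median. The mean log2 signal of the brightest probe set of the 7 genes had an SD of 0.35 over arrays, and the median one of 0.36. Their difference had an SD of 0.10. That of the brighter Actb probe set alone was 0.30, but a mean over 7 varies less than a single probe set, and no other set of 7 was compared. The difference was not spread evenly over groups. It was -0.12 ± 0.07 in the EB group of 24 h and 0.04 ± 0.03 in the vehicle group, and 0.17 ± 0.02 in the EB group of 1 h and 0.06 ± 0.02 in the vehicle group (SD, n = 3 each). With Actb alone the EB and vehicle groups of 24 h were at -0.24 and 0.35.

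Ratios between pairs of genes, which no factor applied to a whole array changes, gave yet another order. The mean SD of a gene's log2 ratio to the 6 others was lowest for Pgk1 at 0.22 and Hprt at 0.23. It was 0.25 for Actg1, 0.26 for Tbp, 0.26 for Ywhaz and 0.31 for Actb, and was highest for B2m at 0.38. After the 2 actins, the steadiest pairs were Hprt with Ywhaz (0.13) and Hprt with Pgk1 (0.14). The least steady was Actb with B2m, at 0.48, whose group means spanned 1.34 on the log2 scale.

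**Figure D5:**
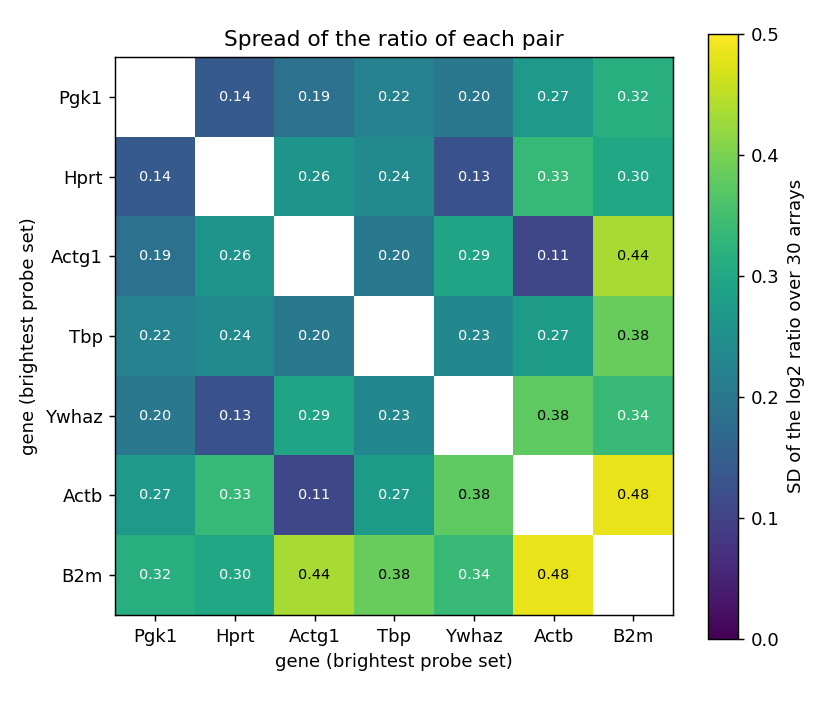
SD of the log2 ratio over 30 arrays for each pair of the 7 genes, each by its brightest probe set (both axes, ordered by the mean over the 6 others), in colour and in figures. The lowest is 0.11 for Actb with Actg1 and the highest 0.48 for Actb with B2m.

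Over 12387 genes, each by its brightest probe set, the 5 whose scaled log2 signals were most like those of Actb were Tpt1, Tmsb10, Tubb5, Rtn1 and Stmn1 (r from 0.98 to 0.99 over 30 arrays, which share groups and scaling). Actg1 was 19th, with r = 0.96, whereas Ywhaz, by 1436971_x_at, had r = -0.46 and Hprt r = -0.06. The other Ywhaz probe sets differed among themselves, with r from -0.50 for 1436981_a_at to 0.71 for 1448219_a_at. The 5 genes were all bright, with mean scaled signals of 7467 for Rtn1 to 11058 for Tmsb10. At 24 h their log2 fold changes ran from -0.43 for Rtn1 to -0.59 for Tmsb10. The 24 h arrays were among those used to choose these genes, so these values describe the choice.

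Relatives of the reference genes were taken each by its brightest probe set, and their counts at 24 h stand beside the 2.77% called over all probe sets. That share covers probe sets of any brightness. Of the 100 brightest, with means above 6427, 80 were lower and 0 higher, and Tubb5 (7797) and Tmsb10 (11058) were that bright. The brightness of the other list genes is not given here, and some may be that bright too. The part of brightness in the counts of the lists was not tested. Of 24 other genes often used as references 5 were lower at 24 h and 0 higher, with a median log2 fold change of -0.11 against -0.01 over all. The larger changes were in Tubb5, a β-tubulin, at -0.53, Eef1a1, an elongation factor, at -0.39, and Rplp0, a ribosomal protein, at -0.35 (adjusted p = 0.00039, 0.0053 and 0.011 from limma). Of 12 other actins and actin-binding proteins 3 were lower and 0 higher, with a median of -0.31: Tmsb10 at -0.59 and Tmsb4x at -0.47, the thymosins that bind free actin, and Pfn2, a profilin, at -0.34 (adjusted p = 0.00073, 0.0011 and 0.013 from limma).

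Among 5 other 14-3-3 genes 2 were lower at 24 h, Ywhae at -0.67 and Ywhab at -0.28 (adjusted p = 0.013 and 0.027 from limma), and 0 were higher. Among 8 other cyclophilins 2 were lower, Ppic at -1.08 and Ppif at -0.49 (adjusted p = 0.034 and 0.012 from limma). Of 13 genes of TFIID and the general transcription factors 1 was lower, Taf5 at -0.48 (adjusted p = 0.037 from limma). By limma, 0 of 12 other glycolysis enzymes, 0 of 7 MHC class I partners and 0 of 8 purine salvage genes passed at 24 h, with medians of -0.11, 0.04 and 0.02. In these 8 lists, 0 genes passed at 1, 3, 6 or 12 h. Time passed in 11 of the 12 glycolysis enzymes, 9 of the 12 actin genes and 3 of the 8 purine salvage genes, where 49% of all tested probe sets passed.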

How the data were processed

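RNA of the whole hypothalamus of 30 mice was hybridised to 30 Affymetrix 430 2.0 arrays. Values deposited by the authors are linear signal intensity from MAS5, whose version and settings the sources used here do not state. Arrays were scaled to the mean of the array medians (41.3), signals under 1 were set to 1, log2 was taken, and the dimmest 40% of 45037 probe sets by mean were left out. The remaining 27022 probe sets were fitted with limma 3.58.1 (R 4.3.3; eBayes with a trend) in 10 groups of 3 arrays, and p-values were adjusted by Benjamini-Hochberg over all of them at 0.05; the procedure was tested on simulated data. The number of arrays limits the precision. Of the probe sets 34945 are annotated to 1 gene, 932 to several and 9160 to none.

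The brightest probe set of each gene and any other called for EB were named, and list genes only where called (at most 3 a list). The members and lists were chosen with earlier results of these data known. Alternatives were other scalings, offsets, filters, weights, a replicate block, each array left out in turn and the methods' test.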

Additional observations from a re-analysis of the deposited data

Results flagged for a closer look

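The effect of EB on the brighter Actb probe set (1436722_a_at) differed between the times, by the test of the interaction (adjusted p = 0.01383 from limma, on 30 arrays). Its log2 fold change was -0.59 at 24 h and 0.08 at 1 h. The effect on Ywhaz 1439005_x_at also differed between the times (adjusted p = 0.02702 from limma), with a log2 fold change of 0.79 at 24 h and -0.57 at 6 h. Neither passed with no filter on dim probe sets (adjusted p = 0.061 and 0.067 from limma). By an unmoderated fit to linear deposited signals neither passed (adjusted p = 0.34 and 0.16). The Actb one also did not pass without scaling (adjusted p = 0.37 from limma), after quantile normalization (0.15) or after cyclic loess (0.084).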

How the results depend on the processing

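At 3 h the count of 1 called probe set became 0 with array weights, with the methods' test (an unmoderated fit to linear deposited signals) and with only the arrays of that time, and 0 to 2 when 1 array was left out. At 24 h the count of 4 was 2 without scaling, 7 after scaling to the 7 reference genes that had a probe set of their own, 0 by the methods' test, and 2 to 5 when 1 array was left out, with 2 where it was vehicle 24 h replicate 1. The direction changed as well. The 4 were 3 lower and 1 higher, against 0 lower and 2 higher without scaling (Ywhaz 1439005_x_at and Pgk1 1439435_x_at). There were 2 lower and 5 higher after scaling to the reference genes, and 2 lower and 3 higher by quantile normalization or cyclic loess. For the interaction the count of 2 was 1 without scaling, 5 after scaling to the reference genes, 0 with no filter, 4 with array weights, 0 by the methods' test, and 0 to 3 when 1 array was left out. The time count of 12 ranged from 10 to 14 when 1 array was left out and was 17 without scaling. At 1, 6 and 12 h and for the averaged effect the count was 0 in each alternative. The Actg1 fold change at 24 h turned to 0.11 after quantile normalization. The median SD of the 17 was 0.44 without scaling and 0.19 without the 12 h groups, an alternative added after the data were seen.

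Over all probe sets, the counts that differed by more than 1.5 times from those under the chosen settings were as follows. At 1 h 1 was called, and 47 with array weights, 19 after scaling to the reference genes, 8 with only the arrays of the time, 4 by quantile normalization or cyclic loess, 3 with no filter or by the methods' test, 2 with the block and 0 with an offset of 16. At 3 h 128 were called, and 237 without scaling, 206 by quantile normalization, 212 by cyclic loess, 36 with array weights, 28 by the methods' test and 17 with only the arrays of the time. At 3 h 26 of the 128 were higher, 2 of the 237, 24 of the 206, 23 of the 212 and 7 of the 167 after scaling to the reference genes. At 6 h 0 were called, and 6 after scaling to the reference genes. At 12 h 0 were called, and 23 with array weights and 518 by the methods' test. At 24 h 241 of 640 calls by cyclic loess were higher, beside 157 of the 749. At that time 749 were called, and 194 without scaling, 1779 after scaling to the reference genes, 1816 with array weights (552 higher) and 1 by the methods' test. The averaged effect gave 20 calls, and 2 without scaling, 40 by quantile normalization, 37 by cyclic loess, 32 with an offset of 16, 42 with array weights, 13 with no filter and 0 by the methods' test. Time gave 13252, and 26388 without scaling and 26260 by the methods' test. The interaction gave 257, and 84 without scaling, 600 after scaling to the reference genes, 51 with no filter, 1079 with array weights and 2 by the methods' test. With 1 array left out the counts ran from 0 to 15 at 1 h, from 27 to 223 at 3 h, from 0 to 6 at 6 h, from 0 to 9 at 12 h, from 254 to 922 at 24 h, from 4 to 37 for the averaged effect and from 17 to 472 for the interaction. The cause of these differences was not tested.

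With a replicate block the called members numbered 0, 1, 0, 0 and 4 at the 5 times, 12 for time and 2 for the interaction, so no count changed. Whether the replicate numbers pair the samples was not tested. Of 15 same-numbered pairs, 0 had deviations that correlated above 0.1 (-0.13 to 0.088). Of the EB arrays, 9 correlated best with their own number, including each of those at 1 and 3 h.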
